A study of Arabidopsis thaliana with 4 samples.

Results

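Transcript levels of 5 genes of mitochondrial function and organic acid metabolism, ACO1, ICL, NDB2, TIM10 and mtACP3, were followed in Arabidopsis thaliana roots with and without cadmium. The members were taken by locus from 2 deposited tables of gene models, which between them held 1487 genes. All 5 genes were listed in the table of the ein3eil1 mutant and 4 in that of the wild type Col, in which ICL was not listed. The genes were picked from their measured responses to cadmium, so these responses are given as a description and not as a test.

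The 4 groups were the ein3eil1 mutant (ein3-1eil1-1) treated with 150 µM CdSO4 for 6 h, the untreated mutant, Col (Col-0) with the same treatment, and untreated Col. All seedlings were 5 days old and had been grown on MS medium, and the tissue is given as root tip and primary root. The mutant carries changes in EIN3 and EIL1, related transcription factors that switch on ethylene-responsive genes, in every cell, so that no tissue of action can be read from it. As neither gene was listed, the labels of the mutant libraries were not checked against its expression. Each group had 1 library. The library totals were not read from a label but worked out from the deposited counts, model lengths and RPKM. They were 16802110 reads (ein3eil1 with Cd), 16993296 reads (ein3eil1 control), 16773595 reads (Col with Cd) and 19192279 reads (Col control). Differences below therefore rest on single libraries without replication. The control plants are labelled as untreated only, so the effect of Cd and that of a 6 h transfer or wait cannot be told apart. Levels are RPKM, read counts scaled by model length and library total, and every interval is a 95% interval for counting error only. In bulk root tissue, fewer cells of a type and less RNA per cell cannot be told apart. Of 10 markers of root tissues and of photosynthesis, 3 were listed in ein3eil1 and 2 in Col. The xylem peptidase gene XCP2 had 85.7 RPKM with Cd and 193 RPKM in the control in ein3eil1. The photosynthesis genes LHCB2.1 (17.9 RPKM with Cd and 7.54 RPKM in the control) and RBCS1A (46.9 and 20.7 RPKM) were higher with Cd in that genotype. In Col the Casparian strip genes CASP1 (98.8 RPKM with Cd and 198 RPKM in the control) and CASP5 (1.93 and 12.4 RPKM) were lower. The part of these tissues in the values below was not tested.

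The 5 genes act at different points of carbon and energy metabolism. Aconitase, the product of ACO1, turns citrate into isocitrate with an iron-sulfur cluster, and isocitrate lyase, the product of ICL, splits isocitrate in the glyoxylate cycle, which lets seedlings build sugars from stored oil. NDB2 is an NADH dehydrogenase on the outer face of the inner mitochondrial membrane that passes electrons to ubiquinone without pumping protons, and it is known as a partner of the alternative oxidase under stress. TIM10 is a small chaperone of the space between the mitochondrial membranes that guides carrier proteins to the inner membrane. mtACP3 is a mitochondrial acyl carrier protein, a family that holds growing acyl chains and, through octanoate, feeds the synthesis of lipoate, the cofactor of several mitochondrial dehydrogenases. In the cell compartments written in the deposited tables, 2 of the 5 genes (NDB2 and TIM10) are placed in mitochondria and 1 (ICL) in the peroxisome. The compartments given there for ACO1 and mtACP3 name neither.

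Each gene was listed as 1 transcript model in each table that held it, and the model matters for how its reads can be understood. In the RefSeq annotation of TAIR10.1, 4 of the genes have several transcripts and only ICL has 1. The listed model of ACO1, AT4G35830.1, lies on chromosome 4 at 16972598 to 16978057 on the reverse strand and is 3214 bases long. All of its 3214 deposited bases also lie in AT4G35830.2, which keeps an intron of 152 bases near the start of the gene. The coding length of AT4G35830.2 is 2388 bases, against 2697 bases in AT4G35830.1. NDB2 was listed as AT4G05020.1 (chromosome 4, 2572621 to 2576595, forward strand, 2253 bases). Its deposited bases all lie in AT4G05020.2, which has an additional coding exon of 111 bases. mtACP3 was listed as AT5G47630.1 (chromosome 5, 19306147 to 19307094, forward strand, 640 bases), which lies wholly within AT5G47630.2, a model that keeps the first intron. Another model, AT5G47630.3, holds 431 of the 640 deposited bases, since it ends at 19306885, where the coding part ends, and it has a longer first exon. TIM10 was listed as AT2G29530.2 (chromosome 2, 12640800 to 12642387, reverse strand, 545 bases). It shares 492 bases with each of the other models, and 53 bases, its first exon, are its own. AT2G29530.3 also has an additional coding exon of 72 bases. All 3 models of mtACP3 have a coding length of 396 bases, and AT2G29530.2 and AT2G29530.1 of TIM10 both have one of 252 bases, so that these models differ outside the coding part. Within the deposited bases, reads of the listed models of ACO1 and NDB2, and of AT5G47630.1 and AT5G47630.2, differ only where an intron or an exon is spliced out or kept. Reads of the last part of the untranslated 3′ end of mtACP3 also tell its listed model from AT5G47630.3. How the authors divided reads between models is not given in the sources used here. No other model of these 4 genes was listed, so a change of the gene and a shift between its models cannot be told apart.

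**Figure D1:**
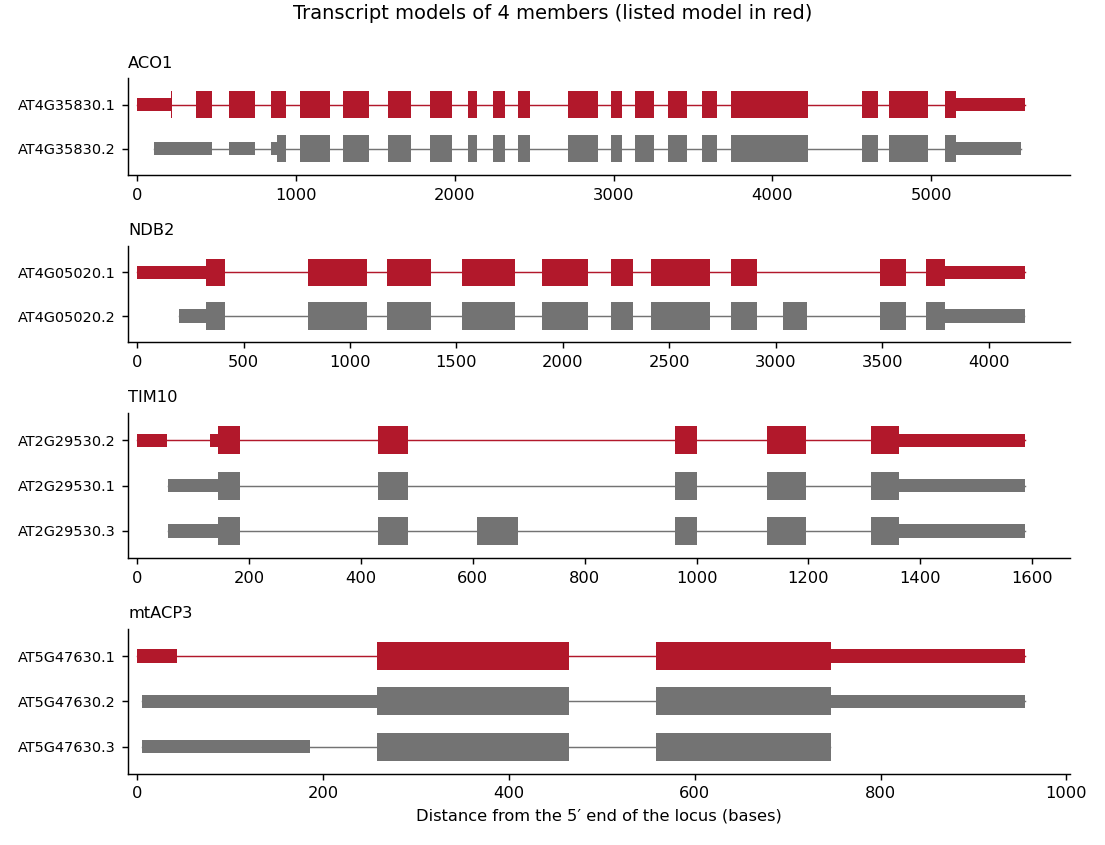
Transcript models of ACO1, NDB2, TIM10 and mtACP3 in the RefSeq annotation, drawn by distance in bases from the 5′ end of the locus. Tall boxes are coding, low boxes are untranslated exon parts, lines are introns, red marks the listed model and grey the others. The models of a gene share most of their coding bases and differ at a kept intron, an added exon, the first exon or the ends.

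The exon that separates the NDB2 models is shown because it is the 1 stretch of coding sequence by which AT4G05020.2 differs from the listed model. It lies at chr4:2575462-2575572 (RefSeq, TAIR10.1, forward strand) and is printed in capitals between 10 bases of intron on either side, in lower case.
NDB2 exon: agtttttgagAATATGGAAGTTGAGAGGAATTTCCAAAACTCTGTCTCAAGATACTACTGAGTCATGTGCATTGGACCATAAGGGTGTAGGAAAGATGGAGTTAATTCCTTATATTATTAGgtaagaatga
Its 111 bases make up 37 codons, so that it keeps the reading frame by length.

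Upstream windows are printed for ACO1 and mtACP3, which were both higher with Cd in ein3eil1 and lower in Col. That of NDB2, which was higher with Cd in both genotypes, is printed too. The sequences upstream of all 5 genes were searched on both strands for 3 motifs. These were ATGTA, a core of reported EIN3 binding sites, CTTGNNNNNCANG, the mitochondrial dysfunction motif bound by NAC factors of mitochondrial stress signalling, and CACGTG, the G-box. Each window covers the 200 bases before the annotated gene start (RefSeq, TAIR10.1), written 5′ to 3′ on the strand of the gene, with every match in capitals. The windows lie at chr4:2572227-2572426 on the forward strand for NDB2, chr4:16978162-16978361 on the reverse strand for ACO1, and chr5:19305939-19306138 on the forward strand for mtACP3.
NDB2 upstream: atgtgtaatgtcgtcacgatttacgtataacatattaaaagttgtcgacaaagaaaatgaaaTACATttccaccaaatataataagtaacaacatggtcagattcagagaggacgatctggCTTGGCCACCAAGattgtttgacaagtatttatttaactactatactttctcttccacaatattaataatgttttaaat
ACO1 upstream: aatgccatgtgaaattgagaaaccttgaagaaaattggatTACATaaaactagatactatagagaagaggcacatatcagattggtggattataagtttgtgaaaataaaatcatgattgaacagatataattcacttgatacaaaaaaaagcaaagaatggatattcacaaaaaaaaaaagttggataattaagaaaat
mtACP3 upstream: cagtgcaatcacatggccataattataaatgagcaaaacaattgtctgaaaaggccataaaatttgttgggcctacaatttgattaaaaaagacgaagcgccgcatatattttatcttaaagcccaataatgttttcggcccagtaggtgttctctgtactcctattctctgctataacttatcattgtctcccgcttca
NDB2 held 1 match to the pattern for the mitochondrial dysfunction motif, which begins at base -79 from the gene start. Of 27443 such windows before protein-coding genes, 1.42% held this pattern, and none of the other 4 members had it in its window. The core ATGTA matched once in NDB2 (-138), ACO1 (-160) and TIM10 (-73) and at 2 places in ICL (-176 and -25), and 43.6% of all windows held it. The window of TIM10 overlaps the protein-coding gene AT2G29540, while those of the other members overlap no annotated gene. The G-box, present in 5.64% of windows, was in none of the 5. The matches overlapped each other nowhere, and they describe letters and not binding.

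ACO1 had opposite responses in the 2 genotypes. With Cd it had 770 reads or 14.3 RPKM in ein3eil1, against 149 reads or 2.73 RPKM in the ein3eil1 control, a 5.23-fold higher level (4.38 to 6.27). In Col it had 226 reads or 4.19 RPKM with Cd, against 650 reads or 10.5 RPKM in the control, a 2.51-fold lower level (2.16 to 2.94). The highest and the lowest of the 4 libraries were thus both mutant libraries, with Col in between. On the log2 scale the Cd ratios were 2.39 in ein3eil1 and -1.33 in Col. Their difference, ein3eil1 minus Col, was 3.72 (3.38 to 4.05), the 8th highest of the 290 models listed in both tables. This ranking, and those below, include models with 0 reads in a library, which were deposited at 0.001 RPKM. In the authors' deposited table the FDR of ACO1 was 4.63e-101 for ein3eil1 and 5.02e-35 for Col, which sets 1 library against another and knows no spread between plants.

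ICL was higher with Cd in the mutant. It had 1070 reads or 29.3 RPKM with Cd, against 275 reads or 7.45 RPKM in the control, a 3.94-fold ratio (3.44 to 4.51). Its model AT3G21720.1 (chromosome 3, 7652487 to 7656011, reverse strand, 2171 bases) is the 1 annotated transcript, so no other model can share its reads. In ein3eil1 with Cd its level per length was the highest of the 5 genes, ahead of mtACP3 at 27.0 RPKM, and their intervals (27.6 to 31.1 RPKM for ICL and 24.0 to 30.3 RPKM for mtACP3) overlapped. ICL was not listed for Col, so its level there is not known from these data and the 2 genotypes cannot be compared for it. Malate synthase (MLS), which acts after ICL in the glyoxylate cycle, was listed in neither table.

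NDB2 was higher with Cd in both genotypes. It had 435 reads or 11.5 RPKM with Cd in ein3eil1, against 193 reads or 5.04 RPKM in the ein3eil1 control, a 2.28-fold ratio (1.92 to 2.71). In Col it had 242 reads or 6.40 RPKM with Cd, against 136 reads or 3.15 RPKM in the control, a 2.04-fold ratio (1.64 to 2.53). Each Cd library lay above its own control, and each mutant library lay above the Col library of the same treatment. The difference of the log2 ratios was 0.16 (-0.23 to 0.55), so that a difference between the responses was not detectable at this depth. The Col ratio, 1.03 on the log2 scale, sits just inside the authors' limit of 1, and 33 of the 807 listed models had a smaller one. The sign of NDB2 in Col turned when the median ratio of its table was subtracted.

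TIM10 moved against ACO1 in both genotypes. In ein3eil1 it had 114 reads or 12.4 RPKM with Cd, against 362 reads or 39.1 RPKM in the control, a 3.14-fold lower level (2.54 to 3.91). In Col it had 180 reads or 19.7 RPKM with Cd, against 101 reads or 9.66 RPKM in the control, a 2.04-fold higher level (1.59 to 2.63) whose sign turned with centring. That Col ratio, 1.03 on the log2 scale, also sits just inside the authors' limit of 1, and 37 of the 807 listed models had a smaller one. The untreated mutant stood apart, above the other libraries. The difference of the log2 ratios was -2.68 (-3.14 to -2.21), the 18th lowest of 290. In the annotation TIM10 also overlaps AT2G29525 on the opposite strand by 21 bases and the non-coding loci AT2G08345 (same strand, 160 bases) and AT2G08350 (opposite strand, 520 bases). These overlaps are of whole gene spans, introns included, and their part within the counted exons was not measured. A strand setting would not separate AT2G08345 from TIM10, and for the opposite-strand loci the setting is not given in the sources used here. Reads of these loci in shared bases could thus not be told apart from those of TIM10.

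mtACP3 followed the direction of ACO1. In ein3eil1 it had 290 reads or 27.0 RPKM with Cd, against 96 reads or 8.83 RPKM in the control, a 3.06-fold higher level (2.42 to 3.89). In Col it had 92 reads or 8.57 RPKM with Cd, against 245 reads or 19.9 RPKM in the control, a 2.33-fold lower level (1.82 to 2.99). The mutant control and the Col library with Cd were nearly equal, and their intervals overlapped (7.15 to 10.8 RPKM in the ein3eil1 control and 6.91 to 10.5 RPKM in Col with Cd, exact Poisson). The difference of the log2 ratios was 2.83 (2.35 to 3.31), the 12th highest of 290. The annotated locus AT5G47635 overlaps mtACP3 on the opposite strand by 47 bases.

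**Figure D2:**
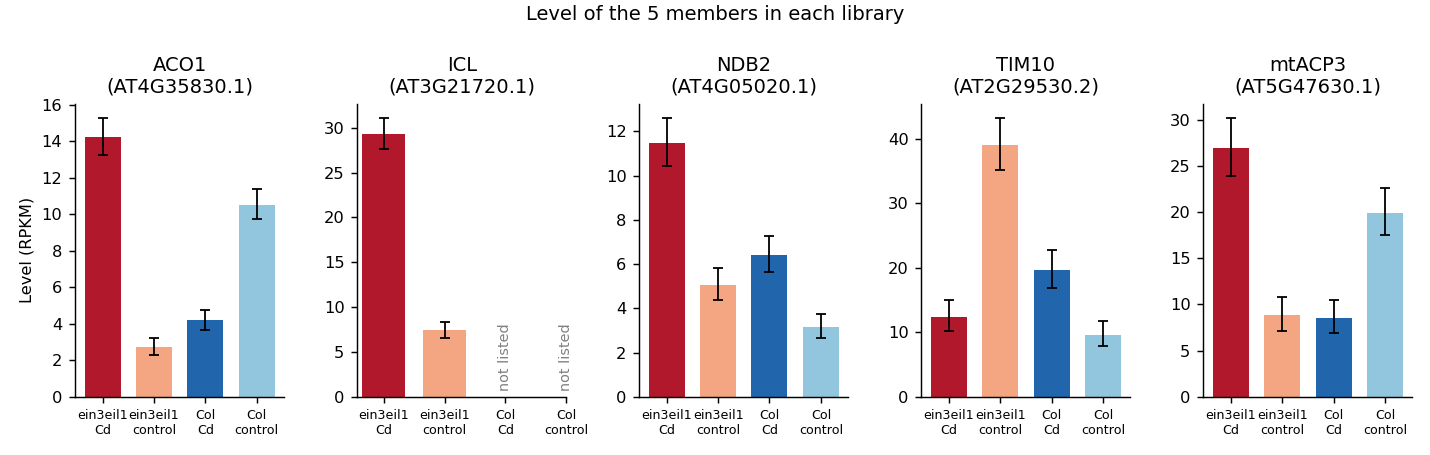
Level in RPKM of the listed model of each gene in the 4 libraries, with bars from 0 and exact 95% Poisson intervals for counting error. ACO1 and mtACP3 are highest in ein3eil1 with Cd (14.3 and 27.0 RPKM), TIM10 is highest in the ein3eil1 control (39.1 RPKM), and ICL has no Col values.

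**Figure D3:**
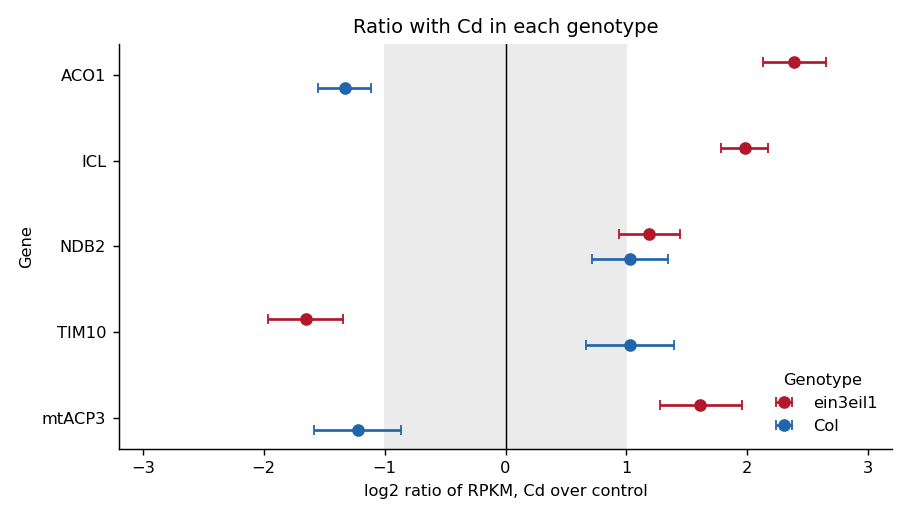
Log2 ratio of RPKM, Cd over control, of each gene in ein3eil1 (red, upper) and Col (blue, lower), with exact 95% counting intervals and the range not listed by the authors, from -1 to 1, in grey. ACO1, TIM10 and mtACP3 lie on opposite sides of 0 in the 2 genotypes, and NDB2 lies on the same side.

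Across the 5 genes, 4 were higher and 1 lower with Cd in ein3eil1, while 2 were higher and 2 lower in Col. Of all models listed for ein3eil1, 59.3% were higher and 35.8% lower by 2-fold or more at 1 RPKM or more, and of those listed for Col 52.9% and 42.4%. Because the genes were chosen from these ratios, nothing is read from the counts. Of the 290 models listed in both tables, 27 (9.31%) had opposite directions, and ACO1, TIM10 and mtACP3 are 3 of them. Opposite directions were seen for 16 models at loci with several annotated transcripts and 11 at loci with 1. Several transcripts were thus annotated for 59.3% of the models with opposite directions, and for 31.6% of the 263 models with the same direction (83 models). Among 9 models that were higher in ein3eil1 and lower in Col, as ACO1 and mtACP3 were, 6 lay at loci with several transcripts. Of 18 models with the reverse directions, as TIM10 had, 10 did. These counts include ACO1, mtACP3 and TIM10, which all lie at such loci and were chosen from these values. The part of the division of reads between models in the opposite directions was not tested.

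**Figure D4:**
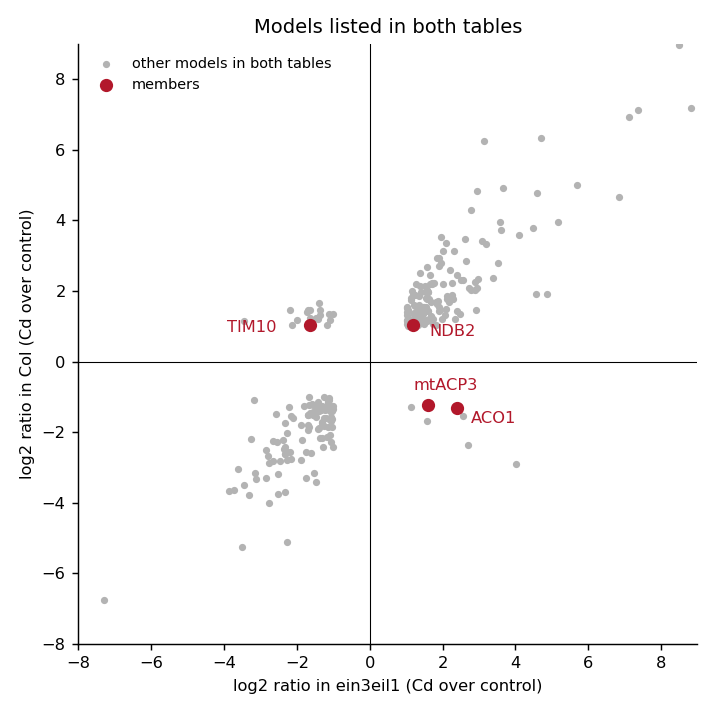
Log2 ratio with Cd in ein3eil1 (x axis) and Col (y axis) of the models listed in both tables, with the members in red and the others in grey. Most points lie in the quadrants of equal direction, while ACO1 and mtACP3 (lower right) and TIM10 (upper left) lie in the others, and 10 models fall outside the axes.

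Set against Col at the same treatment, the 3 genes with opposite responses changed places. With Cd, ACO1 was 3.40-fold higher in ein3eil1 than in Col (2.93 to 3.96), and without it 3.86-fold lower (3.23 to 4.65). mtACP3 was 3.15-fold higher in ein3eil1 with Cd (2.48 to 4.02) and 2.26-fold lower without (1.78 to 2.89). TIM10 was 1.58-fold lower in ein3eil1 with Cd (1.24 to 2.02) and 4.05-fold higher without (3.24 to 5.10). Between the treated mutant and untreated Col, which differ in both genotype and treatment, ACO1 and mtACP3 differed less. For TIM10 the size of this ratio overlapped, within counting error, that of its ratio with Cd. ACO1 was 1.35-fold (1.22 to 1.50), mtACP3 1.35-fold (1.14 to 1.61) and TIM10 1.29-fold (0.978 to 1.70) as high in ein3eil1 with Cd as in untreated Col, and for TIM10 no difference was detectable at this depth. NDB2 was higher in ein3eil1 at both treatments, by 1.79-fold with Cd (1.53 to 2.11) and 1.60-fold without (1.28 to 2.01). The median log2 ratio of ein3eil1 over Col among shared models was 0.27 with Cd (288 models with reads in both) and 0.32 without (282 models), and the values of NDB2, 0.84 and 0.68, lay below the upper quartiles of 0.91 and 1.00. At least 2-fold higher levels in ein3eil1 were found for 22.2% of these models with Cd and 25.2% without, and at least 2-fold lower levels for 15.6% and 15.2%.

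The shared models with the most similar profile were found by the distance between the 4 log2 RPKM values, each set centred on its mean, among 280 models with reads in every library. ACO1 was nearest to mtACP3 (distance 0.64) and to the ribosomal protein genes AT5G22440 (0.67) and AT5G08180 (0.78). mtACP3 was nearest to AT5G22440 (0.34), followed by ACO1 (0.64) and the metallothionein gene MT2A (0.84). TIM10 was nearest to the model AT3G16450.2 of a mannose-binding lectin gene (0.19), AT2G20820.2, of unknown function (0.36), and the ribosomal protein gene AT5G47700 (0.43). NDB2 was nearest to the zinc transporter gene ZIP5 (0.10), the transcription factor gene MYB3 (0.12) and the MATE efflux gene AT3G21690 (0.14). These are likenesses over 4 libraries and 1 set of values each. Of the models listed in both tables, 9 were higher in ein3eil1 and lower in Col, so ACO1 and mtACP3 had few possible neighbours. Both were chosen from these values, and nothing is read from their nearness.

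The wider pathways were represented by few listed genes. In 8 lists with 155 loci, 12 were listed for ein3eil1 (9 higher and 3 lower) and 9 for Col (5 higher and 4 lower), at 1 RPKM or more. Without the 5 members, which were chosen for being listed, these numbers were 7 and 5 of 150 loci, or 4.67% and 3.33%. Of all 27562 annotated protein-coding loci, 3.46% were listed for ein3eil1 and 2.78% for Col, with no minimum RPKM. The counts of loci of the 8 lists were the same without the minimum. The median log2 ratio of the loci listed without the members was 1.77 in ein3eil1 and 1.42 in Col. Over all listed models at 1 RPKM or more it was 1.14 and 1.06. None of the 35 genes of the tricarboxylic acid cycle and pyruvate dehydrogenase and none of the 11 genes of peroxisomal fatty acid oxidation was listed in either genotype. Of 12 aconitase and glyoxylate cycle genes, ACO1 and ICL were listed in ein3eil1 and ACO1 in Col. Of 33 mitochondrial import genes, TIM10 was the 1 listed member in both genotypes, and its partner TIM9 was not listed. Of 14 genes of mitochondrial fatty acid synthesis, lipoate and glycine decarboxylase, mtACP3 was the 1 listed member. Absence from a table does not show a steady level, since only models past the authors' limits on fold and FDR were listed.

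The mitochondrial stress response held most of the listed genes besides the members. Without NDB2, which is also in this list and was chosen for its response, 4 of 13 genes were listed in ein3eil1 (30.8%) and 3 in Col (23.1%), each of them higher with Cd, beside the 3.46% and 2.78% of all protein-coding loci that were listed. Nothing particular to the list is read from these shares, since it was put together with earlier results of these data known. HSP23.5, a small heat shock protein gene, had 77.3 RPKM with Cd and 19.2 RPKM in the control in ein3eil1, a 4.03-fold ratio (3.54 to 4.59). In Col it had 40.4 RPKM with Cd and 8.87 RPKM in the control, a 4.55-fold ratio (3.81 to 5.46). HSP23.6, a mitochondrial small heat shock protein gene, was listed for ein3eil1, with 9.26 RPKM with Cd and 1.50 RPKM in the control (6.16-fold, 3.94 to 10.03). The glycosyltransferase gene UGT74E2, which acts on an auxin, was 3.72-fold higher in ein3eil1 (3.39 to 4.09) and 2.68-fold higher in Col (2.28 to 3.16). The cytochrome P450 gene CYP81D8 was 3.09-fold higher in ein3eil1 (2.42 to 3.99) and 3.39-fold higher in Col (2.62 to 4.43). NDB2 was the 1 listed gene of 14 in the alternative respiration list, and the alternative oxidase AOX1A, with which it is often induced, was in neither table. ANAC013 and ANAC017, the NAC factors of this pathway, were not listed either.

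Of 25 genes of organic acid enzymes and carriers outside mitochondria, 1 was higher and 2 lower in ein3eil1, and 2 were lower in Col. These are 3 and 2 listed genes of 25, beside the 3.46% and 2.78% of all protein-coding loci, and none of the 5 was in both tables. Over all listed models, 29.0% of those for ein3eil1 and 35.9% of those for Col were in both, so nothing is read from the lack of overlap among so few genes. In ein3eil1 the malate channel gene ALMT1, which releases malate from roots, had 1.71 RPKM with Cd and 5.26 RPKM in the control, a 3.08-fold lower level (2.18 to 4.41). PPC1, a phosphoenolpyruvate carboxylase gene, had 4.40 RPKM with Cd and 9.06 RPKM in the control, a 2.06-fold lower level (1.76 to 2.42) for the model AT1G53310.2. NADP-ME1, a malic enzyme gene, had 37 reads with Cd and 11 reads in the control, a 3.40-fold ratio (1.70 to 7.39) at 1.09 and 0.319 RPKM. In Col the vacuolar malate carrier gene TDT had 23.0 RPKM with Cd and 50.6 RPKM in the control, a 2.21-fold lower level (2.04 to 2.39). FRD3, which loads citrate into the xylem for iron transport, had 2.26 RPKM with Cd and 5.30 RPKM in the control, a 2.35-fold lower level (1.77 to 3.13) for the model AT3G08040.2. Whether these genes responded differently in the 2 genotypes was not tested, since each was listed in 1 table.

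**Figure D5:**
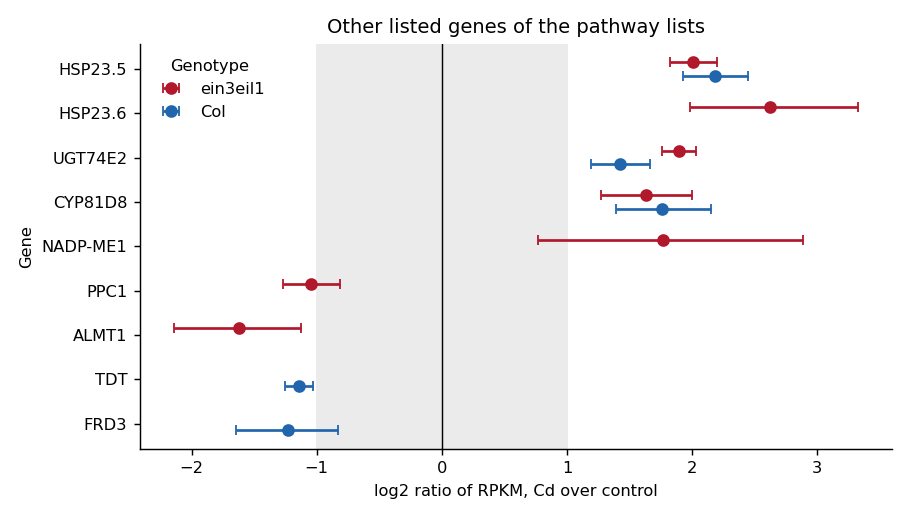
Log2 ratio of RPKM, Cd over control, of the other named genes of the pathway lists in ein3eil1 (red, upper) and Col (blue, lower), with exact 95% counting intervals and the range not listed by the authors in grey. HSP23.5, UGT74E2 and CYP81D8 were higher with Cd in both genotypes, and the other 6 genes have a value in 1 genotype.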

How the data were processed

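Total RNA of roots was sequenced in 4 libraries, 1 per group, and groups come from the sample titles. The library totals given in the report are those implied by the deposited RPKM. The authors deposited 2 tables, 1 per genotype, with read counts, RPKM, a log2 ratio, a p-value and an FDR for each gene model, per the file headers. Checked on the files, the authors' RPKM is the count over model length and 1 total per library wherever a model has reads. Models with 0 reads carry 0.001 RPKM instead. There were 5 of them in ein3eil1 with Cd, 14 in the ein3eil1 control, 12 in Col with Cd and 15 in the Col control. Every listed log2 ratio is at least 1 in size, with an FDR up to 0.000987 in ein3eil1 and 0.000967 in Col. Aligner, counter, strand setting and genome build: not given in the sources used here.

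Ratios were taken from deposited RPKM values without a further pseudocount, with exact Clopper-Pearson intervals, and differences of log2 ratios with normal intervals from the 4 counts. Of the 290 models listed in both tables, 280 had reads in every library. Ranks among the 290 thus include ratios set by the 0.001 RPKM given at 0 reads, which the members do not have. Reads from amplified libraries are not independent molecules. The interval steps were tried on simulated Poisson counts, the model they assume, so that spread between libraries was not covered. With 1 library per group no test was made. The members, the 8 lists (all 155 loci were annotated) and the rules were chosen with earlier results of these data known. From each list up to 4 listed genes with the largest ratio were named. Transcripts and sequences are RefSeq's, TAIR10.1. Of 1489 deposited models found there by identifier, 224 had the same start and end, 222 of them also the same exon length, and 1151 had both ends within 200 bases, and RefSeq's exons within the deposited ends summed to the deposited length for all 5 members. A BLAST+ 2.17.0 search of the 5 listed transcripts against the genome found no other locus with 95% identity over 50 bases. Scripts ran on Python 3.11.15 with SciPy 1.17.1, numpy 2.4.6 and pandas 2.3.3, and figures were drawn with matplotlib 3.10.9. Alternatives tried were a pseudocount, centring, other minimums and another fold.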

Additional observations from a re-analysis of the deposited data

Results flagged for a closer look

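Of the members with values in both genotypes, 3 moved in opposite directions with Cd, each with 1 library per group, so that the difference between genotypes was not tested across samples. The difference of log2 ratios, ein3eil1 minus Col, was 3.72 for ACO1, 2.83 for mtACP3 and -2.68 for TIM10.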

How the results depend on the processing

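Centring the ratios on the median of the listed models (log2 1.16 in ein3eil1 and 1.06 in Col) subtracts those values, and turned the sign of NDB2 (-0.0337) and TIM10 (-0.0314) in Col. It gave log2 ratios in ein3eil1 of 1.22 for ACO1, 0.81 for ICL, 0.0240 for NDB2, -2.82 for TIM10 and 0.45 for mtACP3, and in Col of -2.39 for ACO1 and -2.28 for mtACP3. These medians come from listed ratios of 1 or more in size and do not measure an error of scaling. A pseudocount of 1 RPKM gave 2.03 for ACO1 in ein3eil1, 3.19 for its difference between genotypes and -1.63 for ein3eil1 over Col in the control. At 3-fold, 2 loci of the lists were higher and 0 lower in Col. The number of models in opposite directions was 44 when centred on each table's median and 48 on that of the shared models, settings chosen after seeing the data. Of the 52 values recomputed for members and counts, 36 kept their direction within the interval or within 1.5 times, as did the difference between genotypes of mtACP3, TIM10 and NDB2 under every setting run. No paired analysis was possible because each group has 1 library. Depth limits the genes with few reads, such as NADP-ME1.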

Other observations

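Among all listed models at 1 RPKM or more, 6 in ein3eil1 and 2 in Col carried a mitochondrial compartment in the deposited annotation, 5 higher and 1 lower with Cd in ein3eil1 and 2 higher in Col, beside 62.4% of all listed models higher in ein3eil1 and 55.5% in Col at the same minimum. NDB2 and TIM10, which were chosen for their responses, are 2 of the 6 and both of the 2, so that 4 other models in ein3eil1, all higher, and 0 in Col carried it. Nothing is read from these counts. TIM10 was the 1 of them that had opposite directions in the 2 genotypes, among 2 such models listed in both tables. This text pattern was chosen after values had been seen.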
